A study of Mus musculus with 30 samples.

Results

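*Plet1*, placenta-expressed transcript 1, was followed through 30 RNA sequencing libraries of mouse bone marrow-derived dendritic cells (BMDCs), as 1 of the 43629 identifiers in the gene count table. It was taken as the row whose Ensembl identifier, ENSMUSG00000032068, carries that symbol. BMDCs are dendritic cells (DCs) grown from bone marrow. The study asked how CACNB3, a subunit of voltage-gated calcium channels, bears on the answer of these cells to extracellular adenosine triphosphate (ATP), a danger signal that damaged cells release.

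BMDCs from 5 wild-type (WT) and 5 *Cacnb3*-/- cultures were grown for 6 days and each gave 3 libraries, whose names end in ctrl, 0p5h and 24h. The labels describe a pulse of 500 µM ATP for 30 min, with a late harvest at 24 h. The study's text puts the early harvest 30 min after the pulse, which the treatment label of 30 min of ATP does not settle. Library names and treatment labels disagreed: libraries named ctrl carried the label of the 30-min pulse and those named 0p5h the label of the vehicle, while those named 24h agreed. Groups therefore go by library name, and a rise from ctrl to 0p5h would be a fall after the pulse if the treatment labels are right. The study's methods give WT mice as C57BL/6J and *Cacnb3*-/- mice as C57BL/6N, both sexes, so genotype and substrain cannot be told apart. No label says whether a culture is 1 animal, and p-values then measure the spread between cultures, which may be technical. By *Xist*, the RNA of the inactive X chromosome, 2 cultures of each genotype were female and 3 male, so the cultures of a genotype came from more than 1 animal.

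*Plet1* encodes a glycoprotein held at the cell surface by a glycosylphosphatidylinositol (GPI) anchor. It is best known from progenitors of trophoblast, hair follicle and thymic epithelium, where antibodies to its product mark immature cells. It has also been described on DCs of the intestine, in connection with their migration, and on alveolar macrophages, which depend on granulocyte-macrophage colony-stimulating factor (GM-CSF), a cytokine used to grow BMDCs.

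*Plet1* was chosen by its fall from ctrl to 24h in WT BMDCs, where it was 1 of 2 genes called among 13176 tested (0.0152%). Every contrast that holds the WT ctrl or WT 24h libraries is therefore a description, with a fitted log2 change and its standard error (SE) and no test. The change between sets in *Cacnb3*-/- cultures and the difference between genotypes in the libraries named 0p5h did not enter that choice and were tested with edgeR's quasi-likelihood test, 4 tests in all. A call needed a change of at least 2-fold and an adjusted p under 0.05, by the Benjamini-Hochberg method over all genes tested. Levels are CPM, a gene's counts relative to the total of its library, with library totals adjusted by the trimmed mean of M values (TMM).

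Assigned counts per library ran from 8237393 to 32164225, with a median of 19556920. The share of counts on mitochondrial genes was 0.706 to 5.61% in WT and 2.16 to 16.5% in *Cacnb3*-/- libraries, and the highest share of each genotype was that of a library named 24h. Culture p974s865 stood apart from the other *Cacnb3*-/- cultures in this share, with 2.16 to 3.21%, and the means, tested changes and leading correlations of *Plet1* are given with and without it. *Cacnb3* itself was counted in all 30 libraries, at 1035 to 2143 CPM in WT and 573 to 1331 CPM in libraries labelled *Cacnb3*-/-. Neither the labels nor the methods name the deleted part, and a count over the whole gene does not check the label. The 21 listed genes of mature migratory DCs, such as *Ccr7* and *Fscn1* and with *Cacnb3* among them, summed to 17999 to 42244 CPM, those of granulocytes to 177 to 812 CPM.

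The gene spans positions 50494525 to 50505482 of chromosome 9 (GRCm38), is read from the forward strand and has 5 exons of 1947 bases together. The 250 bases before its start, at chr9:50494275-50494524 of GRCm38.p6 on the forward strand, are shown as the stretch just before transcription of the gene begins. They come from RefSeq, with matches to 3 motifs in capitals.

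Plet1 promoter: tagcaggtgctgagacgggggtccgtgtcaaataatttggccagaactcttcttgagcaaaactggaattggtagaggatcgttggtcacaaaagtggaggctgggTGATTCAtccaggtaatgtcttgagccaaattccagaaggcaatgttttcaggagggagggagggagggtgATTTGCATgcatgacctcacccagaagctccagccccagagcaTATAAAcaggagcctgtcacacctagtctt

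Among 32851 promoter windows of this length, read on both strands, 12.4% held the TATA box TATAAA, 1.6% the octamer ATTTGCAT and 6.75% TGANTCA, the element of AP-1 factors such as FOSL2. In *Plet1* they began 30, 73 and 144 bases before the start and did not overlap. The cyclic AMP element TGACGTCA, in 1.55% of windows, and TTCNNNGAA, the form STAT5 binds, in 7.02%, had no match here. A match is a description of letters and not a binding site, and the lack of one in this window does not show that a factor has no site elsewhere. The window of *Cish*, a gene that STAT5 induces and that is described below, had no match to TTCNNNGAA either.

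In the 5 WT cultures *Plet1* was at 16.3, 14.5, 21.5, 12.1 and 6.27 CPM in the libraries named ctrl (p974s846, p974s850, p974s855, p974s856 and p974s864 in this order). It was at 18.7, 20.5, 22.3, 16.5 and 10.1 CPM in those named 0p5h. It was at 3.20, 3.06, 2.75, 2.19 and 1.69 CPM in those named 24h. Each culture held its highest level at 0p5h and its lowest at 24h, and the 24h libraries overlapped neither of the other sets.

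Means were 14.1 ± 5.57 CPM in WT ctrl, 17.6 ± 4.73 in WT 0p5h and 2.58 ± 0.631 in WT 24h (SD, n = 5 each). The cultures lay 3.42-fold apart in ctrl and 1.89-fold apart in 24h. Culture p974s864 was lowest in all 3 sets, and p974s855, highest in ctrl and 0p5h, was in the middle at 24h. These levels rest on 124 to 559 reads in ctrl, 219 to 685 in 0p5h and 28 to 70 in 24h. The 28 reads of p974s856 at 24h give an exact 95% binomial interval of 1.43 to 3.12 unnormalized CPM, which covers counting error only, and the interval of the 685 reads of p974s855 at 0p5h runs from 19.7 to 22.95.

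In the cultures labelled *Cacnb3*-/-, *Plet1* was at 9.51, 5.47, 3.62, 14.1 and 13.2 CPM in ctrl (p974s843, p974s851, p974s852, p974s853 and p974s865 in this order). It was at 12.5, 11.6, 6.9986, 19.9 and 22.7 CPM in 0p5h. It was at 5.85, 3.81, 2.73, 9.82 and 2.89 CPM in 24h. Here too each culture was highest at 0p5h and lowest at 24h, but the sets overlapped, since the cultures themselves lay 3.25- to 3.898-fold apart. Culture p974s853 at 24h, at 9.82 CPM, was above p974s852 at 0p5h.

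Means were 9.19 ± 4.63 CPM in *Cacnb3*-/- ctrl, 14.8 ± 6.43 in 0p5h and 5.02 ± 2.96 in 24h (SD, n = 5 each), from 31 to 421 reads a library. Without p974s865 they were 8.18 ± 4.66, 12.8 ± 5.35 and 5.55 ± 3.13 CPM (SD, n = 4 each). The 24h mean rose without this culture because it was second lowest there, though it was the highest at 0p5h.

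**Figure D1:**
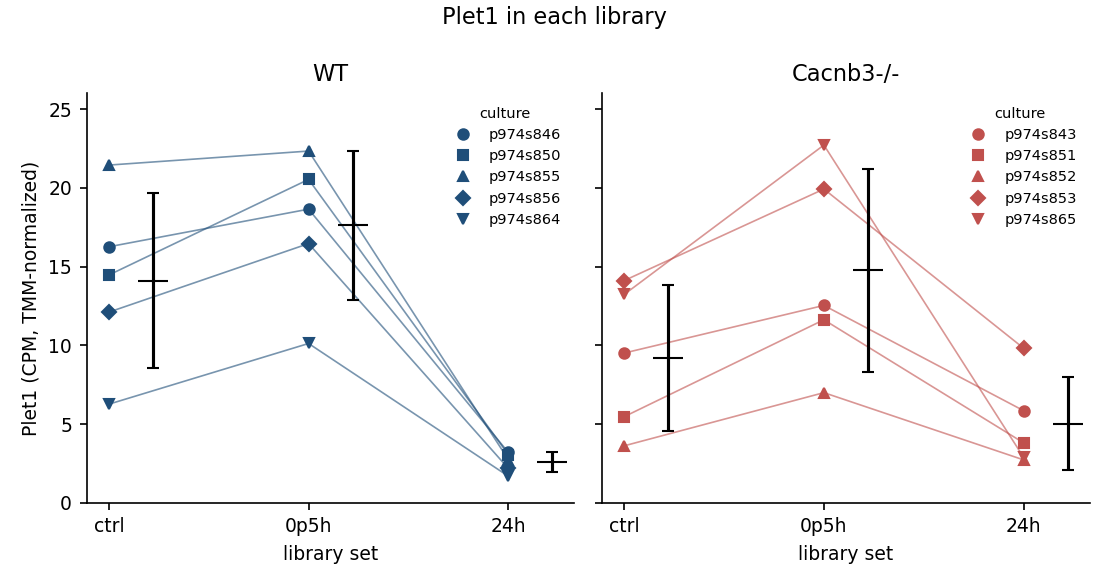
*Plet1* in CPM (vertical axis) by library set, ctrl, 0p5h or 24h (horizontal axis), WT on the left and *Cacnb3*-/- on the right. Each symbol is 1 library, lines join the libraries of 1 culture, and black bars are the mean ± SD of 5 cultures. WT cultures end between 1.69 and 3.20 CPM at 24h and *Cacnb3*-/- cultures between 2.73 and 9.82 CPM.

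Ordered by mean, the groups ran from WT 0p5h over *Cacnb3*-/- 0p5h, WT ctrl, *Cacnb3*-/- ctrl and *Cacnb3*-/- 24h to WT 24h. Each neighbouring pair in this order overlapped. All WT 24h libraries were below all libraries of WT ctrl, WT 0p5h, *Cacnb3*-/- ctrl and *Cacnb3*-/- 0p5h. All *Cacnb3*-/- 24h libraries were below all WT 0p5h libraries, at most 9.82 against at least 10.1 CPM, and no other pair of groups was separate. Per kilobase of exon, which allows genes to be compared, *Plet1* was at 9.05 ± 2.43 CPM per kb in WT 0p5h and 1.32 ± 0.324 in WT 24h (SD, n = 5 each). Among the 13755 genes kept over all libraries, it ranked between the percentiles 52.7 and 69.2 in WT 0p5h and between 22.6 and 32.1 in WT 24h. In *Cacnb3*-/- 24h it ranked between the percentiles 29.3 and 52.9.

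From 0p5h to 24h *Plet1* was lower in all 10 cultures. Within a culture the level at 0p5h was 5.83- to 8.14-fold that at 24h in WT and 2.03- to 7.87-fold in *Cacnb3*-/-. The WT changes of log2 -2.54, -2.75, -3.03, -2.91 and -2.58 lay close together. The *Cacnb3*-/- changes were log2 -1.10, -1.61, -1.36, -1.02 and -2.98, so 4 of the 5 cultures were outside the WT range and p974s865 within it.

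The fitted change from 0p5h to 24h in *Cacnb3*-/- was log2 -1.57 (SE 0.40, n = 5 cultures), a 2.97-fold lower level, and did not pass edgeR's test (adjusted p = 0.106), with 84 of 12730 genes called (0.66%). With the culture as a replicate block, which compares libraries of the same culture, it passed and was called at log2 -1.63 (SE 0.25, edgeR adjusted p = 0.00135), with 2.88% of genes called. Without p974s865 the change was log2 -1.22 and the unblocked edgeR adjusted p was 0.133. DESeq2 called it without the block (log2 -1.56, adjusted p = 0.00597). The WT change over the same sets was log2 -2.76 (SE 0.24), as a description. Depth and mitochondrial share moved too: the 24h libraries of *Cacnb3*-/- had a median of 11986891 counts against 18729574 at 0p5h and mitochondrial shares of 3.21 to 16.5% against 2.16 to 10.5%, and their part in the change was not tested. In bulk RNA, fewer cells with *Plet1* and less *Plet1* RNA per cell cannot be told apart.

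From ctrl to 0p5h *Plet1* was higher in all 10 cultures, by log2 0.06 to 0.69 within WT cultures and 0.40 to 1.09 within *Cacnb3*-/- cultures. In *Cacnb3*-/- the fitted change was log2 0.66 (SE 0.39, n = 5 cultures) and did not pass (edgeR adjusted p = 0.9999), with 37 of 12750 genes called (0.29%). With the culture block it was log2 0.70 (SE 0.12) and passed edgeR's threshold on p (adjusted p = 0.0129), but stayed under 2-fold and was not called, with 0.643% of genes called. Without p974s865 the unblocked change was log2 0.64 (edgeR adjusted p = 0.9997). In WT the description was log2 0.33 (SE 0.29), and log2 0.36 (SE 0.08) with the block. The 3 tests within *Cacnb3*-/- share libraries pairwise, so a high level at 0p5h adds to this comparison and the one before.

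From ctrl to 24h *Plet1* was lower in all 10 cultures. In WT, where it was chosen, the level in ctrl was 3.71- to 7.82-fold that at 24h and the fitted change log2 -2.44 (SE 0.30). In *Cacnb3*-/- 4 cultures had 1.33- to 1.63-fold higher levels in ctrl and p974s865 4.58-fold. The fitted change was log2 -0.91 (SE 0.43, n = 5 cultures) and did not pass (edgeR adjusted p = 0.444). Neither did any other of the 12452 genes tested (0.0% called), while DESeq2 called 45, and in edgeR 1343 were under 0.05 before adjustment. With the culture block the change of *Plet1* was log2 -0.90 (SE 0.26, edgeR adjusted p = 0.055) and did not pass, with 138 of 12452 genes called. In DESeq2 with the block it was log2 -0.88 (adjusted p = 0.0115), under 2-fold and not called. Without p974s865 the unblocked change of *Plet1* was log2 -0.58 (edgeR adjusted p = 0.475).

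**Figure D2:**
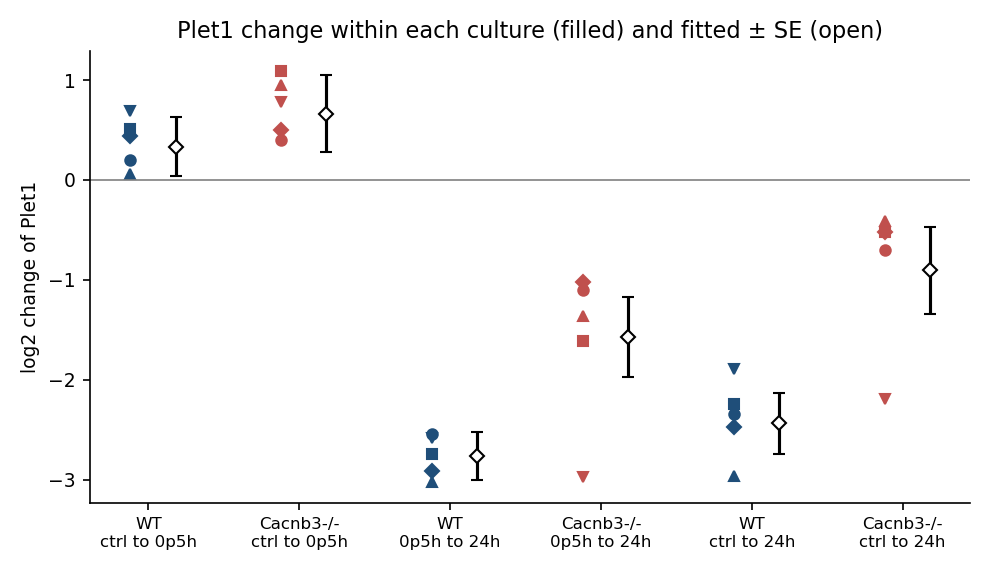
Log2 change of *Plet1* (vertical axis) over each pair of library sets (horizontal axis). Filled symbols are the change within 1 culture, with the symbols of the plot of levels, and open diamonds with bars are the edgeR estimate ± SE from the fit without the block. All 10 cultures lie above 0 from ctrl to 0p5h and below 0 over the other pairs, and p974s865 is the lowest *Cacnb3*-/- culture in the changes to 24h.

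Between genotypes the libraries named 0p5h gave a test that the choice of *Plet1* did not use. *Plet1* was at 10.1 to 22.3 CPM in WT and 6.9986 to 22.7 CPM in *Cacnb3*-/-, and the difference was log2 -0.24 (SE 0.30, n = 5 cultures each, edgeR adjusted p = 0.699). Without p974s865 it was log2 -0.44 (edgeR adjusted p = 0.387). No gene of 12806 was called there by edgeR (0.0%), although 2103 were under 0.05 before adjustment, and DESeq2 called 68. As descriptions, *Cacnb3*-/- minus WT was log2 -0.59 (SE 0.38) in ctrl and 0.95 (SE 0.36) in 24h. The change from ctrl to 24h differed between genotypes by log2 1.54 (SE 0.56), that from 0p5h to 24h by 1.19 (SE 0.49) and that from ctrl to 0p5h by 0.34 (SE 0.52), in each case *Cacnb3*-/- minus WT.

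The other gene called in WT from ctrl to 24h was *Il1rl2* (ENSMUSG00000070942), the receptor of interleukin-36 cytokines. It was at 15.7 ± 1.90 CPM in WT ctrl, 15.4 ± 2.55 in WT 0p5h and 6.94 ± 1.04 in WT 24h (SD, n = 5 each), with no overlap of the 24h libraries with the others. Unlike *Plet1*, its fitted WT change from ctrl to 0p5h was log2 -0.01. In *Cacnb3*-/- it ranged from 4.41 to 32.4 CPM in ctrl and from 5.28 to 14.1 CPM in 24h, and its change between these sets was log2 -0.40 (edgeR adjusted p = 0.664). The highest *Il1rl2* levels, 32.4 and 38.1 CPM, were those of culture p974s865 in ctrl and 0p5h.

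*Plet1* overlaps 1 gene of the table, the antisense long noncoding RNA *Plet1os* (ENSMUSG00000101304), which spans it on the reverse strand and shares 261 bases of exon. *Plet1os* had 0 to 19 reads a library, at most 0.614 CPM in WT ctrl, 0.223 CPM in WT 24h and 1.09 CPM in *Cacnb3*-/- ctrl. Whether counting used strand is not given in the sources used here, so how reads on the shared bases were assigned is not known. Its reads came to at most 8.33% of those of *Plet1* in WT libraries and 18.2% in *Cacnb3*-/- libraries. The highest share was 8 reads against 44 in p974s843 at 24h, and the most reads were 19 against 685 in p974s855 at 0p5h.

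Within 200 kb of *Plet1* lie 11 other genes, and 9 of them entered the tests from 0p5h to 24h. *Plet1* was chosen by its fall to the same WT 24h libraries, so smaller changes nearby are not a trait of the locus. The fitted changes of these 9 lay between log2 -0.35 and 0.01 in WT and between -0.41 and 0.31 in *Cacnb3*-/-. None was called in either, where 0.639% of all genes were in WT and 0.66% in *Cacnb3*-/-. The nearest, *Pts*, 16136 bases away and an enzyme of tetrahydrobiopterin synthesis, was at 23.5 CPM in WT 0p5h and 23.6 CPM in WT 24h. *Il18*, an inflammasome-processed cytokine 69791 bases away, was at 5.09 ± 1.19 and 4.86 ± 1.03 CPM (SD, n = 5 each). The largest of these 9 WT changes was that of *Dixdc1*, from 5.11 ± 2.66 to 3.99 ± 1.84 CPM. *Sdhd*, a subunit of succinate dehydrogenase and the most abundant by reads, was at 220 and 204 CPM. *Tex12* and *Pih1d2* had at most 3 and 11 reads and did not enter the tests.

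**Figure D3:**
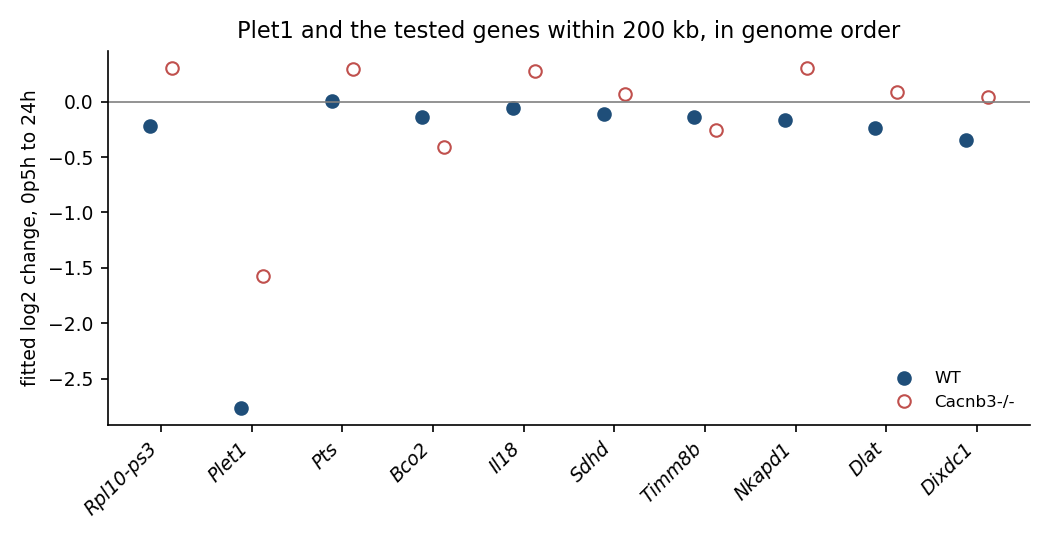
Fitted log2 change from 0p5h to 24h (vertical axis) of *Plet1* and the 9 tested genes within 200 kb, in genome order and not to scale (horizontal axis). Filled circles are WT and open circles *Cacnb3*-/-. *Plet1*, chosen by its fall to the same WT 24h libraries, is at -2.76 and -1.57, and the other genes lie between -0.41 and 0.31.

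Which genes vary with *Plet1* was described by Pearson's r of log2 CPM over the 30 libraries, for 12716 other genes. The libraries are 3 sets from 10 cultures and share set, culture and depth, so no p is given. Over all genes the median r was 0.01, 3 genes were above 0.8 and none below -0.8. *Plet1* itself had r = 0.35 with log10 depth and -0.19 with mitochondrial share.

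*Cish* (ENSMUSG00000032578) came first, with r = 0.87 and Spearman's rho of 0.89. It encodes a suppressor of cytokine signalling that STAT5 induces, for example after GM-CSF. *Cish* was at 32.2 ± 16.1 CPM in WT ctrl, 46.3 ± 11.9 in 0p5h and 15.6 ± 4.95 in 24h (SD, n = 5 each), and at 22.1 ± 7.20, 37.8 ± 11.2 and 12.956 ± 1.74 in *Cacnb3*-/-. Like *Plet1* it was highest at 0p5h and lowest at 24h in all 10 cultures. Over 15 libraries r was 0.91 in WT and 0.84 in *Cacnb3*-/-, and 0.75 for deviations from the 6 group means, so cultures high in *Plet1* within a group were also high in *Cish*. The fitted change of *Cish* from ctrl to 24h was log2 -1.04 in WT and -0.77 in *Cacnb3*-/-.

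*H2-Ob* (ENSMUSG00000041538), the beta chain of H2-O, which restrains peptide loading of class II molecules in antigen presentation, came second with r = 0.87 and rho of 0.84. It was at 25.4 ± 9.88, 25.04 ± 10.2 and 8.29 ± 2.16 CPM in WT ctrl, 0p5h and 24h (SD, n = 5 each). Its *Cacnb3*-/- means were 20.7 ± 8.82, 23.4 ± 10.4 and 12.7 ± 4.45 CPM. In culture p974s865 it went from 40.9 CPM at 0p5h to 9.86 CPM at 24h, whereas in p974s843 it was at 19.03 and 19.02 CPM. With culture means taken out as well as group means, its r was 0.82, while that of *Cish* was 0.60.

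**Figure D4:**
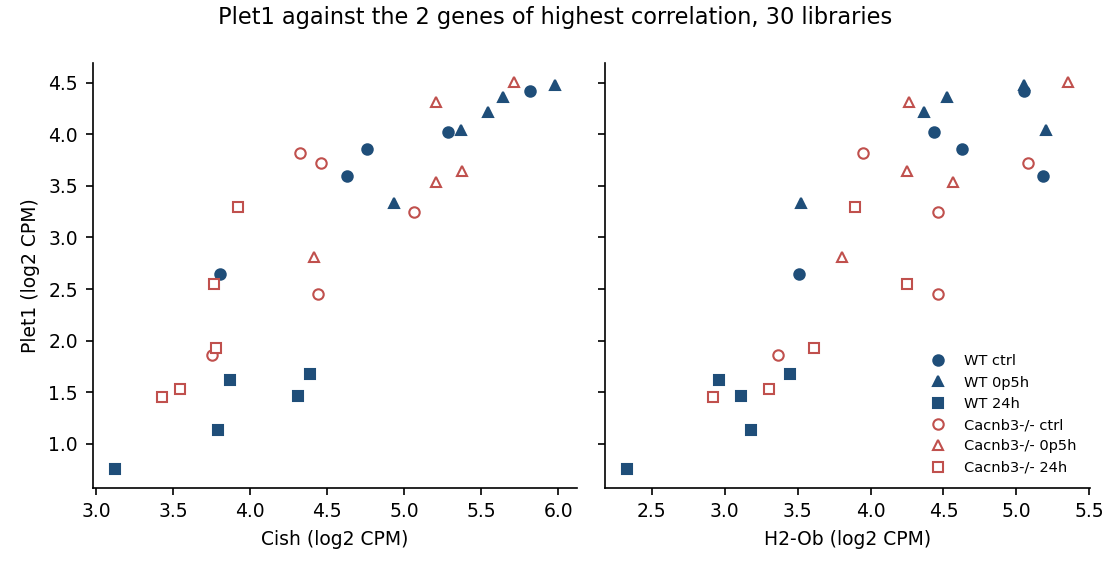
*Plet1* (vertical axis) against *Cish* (left) and *H2-Ob* (right), all in log2 CPM, with 1 symbol for each of the 30 libraries. Filled blue symbols are WT and open red symbols *Cacnb3*-/-, with circles for ctrl, triangles for 0p5h and squares for 24h. The 5 WT 24h libraries lie at or below 3.20 CPM of *Plet1*, and over all libraries r was 0.87 for each gene.

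A further 7 of the 10 genes with the highest r are described here, with r between 0.77 and 0.81. *Fosl2*, a subunit of AP-1, was at 149, 288 and 74.1 CPM in WT ctrl, 0p5h and 24h and at 144, 335 and 128 CPM in *Cacnb3*-/- (means of 5). *Vegfa*, the angiogenic growth factor, was at 492, 702 and 275 CPM in WT. *Traf4*, an adaptor of the tumour necrosis factor receptor family, was at 26.2, 51.5 and 7.11 CPM, and *S1pr3*, a receptor for sphingosine-1-phosphate, at 10.9, 17.6 and 6.63 CPM. These 4 genes, like *Plet1*, had their highest WT mean at 0p5h and their lowest at 24h.

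*Eprs1*, a tRNA synthetase, *Prdx6*, a peroxiredoxin, and *Mgat4a*, a glycosyltransferase of N-glycans, had r of 0.81, 0.80 and 0.78. Their WT changes from 0p5h to 24h were log2 -0.50, -0.83 and -0.45, smaller than that of *Plet1*, which was chosen by its WT fall to 24h. For deviations from group means the r of these 7 was between 0.41 and 0.59, so more of their likeness than that of *Cish* lay in the differences between groups. None of the 10 was among the 10 highest over the *Cacnb3*-/- libraries alone, and 4 were over the WT libraries alone. Of the 100 genes highest in WT, 3 were among the 100 highest in *Cacnb3*-/-, 3.0% of each list, where 100 genes are 0.786% of those ranked. The 100 highest in WT had a median r of 0.43 in *Cacnb3*-/-, and the 100 highest in *Cacnb3*-/- one of 0.468 in WT, against medians of 0.02 over all genes in either. Over the 27 libraries without p974s865, r was 0.87 for *Cish* and 0.86 for *H2-Ob*, and 8 of the 10 genes were again among the 10 highest.

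The 5 genes with the lowest r lay between -0.78 and -0.76. *Ido2*, an enzyme of tryptophan breakdown, was at 2.29 ± 0.936 CPM in WT ctrl, 2.57 ± 1.11 in 0p5h and 5.39 ± 1.76 in 24h (SD, n = 5 each). *Slco2b1*, an organic anion transporter, was at 1.79, 1.88 and 5.56 CPM, and *Extl1*, a glycosyltransferase, at 41.9, 39.8 and 73.4 CPM. *Cutc* and *Gm16685*, a long noncoding RNA, had WT changes from ctrl to 24h of log2 0.31 and 0.63. All 5 had their highest mean at 24h in both genotypes.

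Within groups, genes with the highest r of deviations included *Cdr2l* (0.76), *Cish* (0.75), *F11r* (0.73) and *H2-Ob* (0.71). *F11r*, which encodes the junctional adhesion molecule JAM-A, was at 128 ± 23.7 CPM in WT ctrl and 103 ± 35.2 in WT 24h (SD, n = 5 each). The lowest were *Eno2* (-0.75), *Dpp10* (-0.75), *Cc2d2a* (-0.73), *Vat1l* (-0.73) and *Jchain* (-0.72). *Eno2*, a glycolytic enolase, was at 18.9 ± 5.92 CPM in WT ctrl and 31.1 ± 13.997 in WT 24h.

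**Figure D5:**
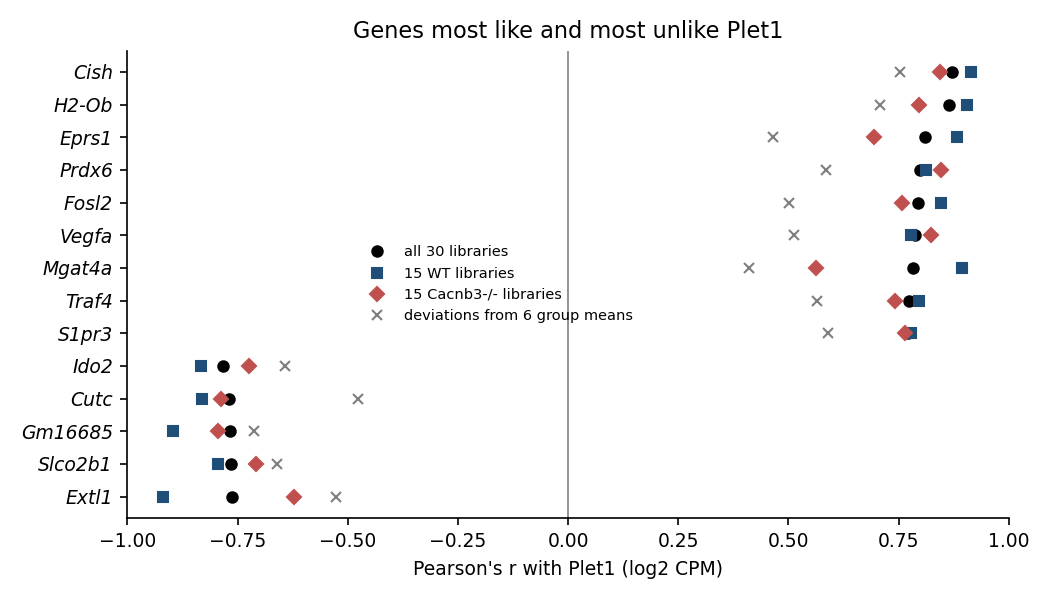
Pearson's r with *Plet1* (horizontal axis) of 9 of the 10 genes with the highest r and the 5 with the lowest r over 30 libraries (vertical axis). Circles are all 30 libraries, squares the 15 WT, diamonds the 15 *Cacnb3*-/- and crosses the deviations from the 6 group means. Among these 9, *Cish* has the highest cross, 0.75, and *Mgat4a* the lowest, 0.41.

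The biology around *Plet1* was described through 9 gene lists of 182 genes, of which 149 to 152 were tested in a comparison. From 0p5h to 24h in WT 4 of 149 were called, all lower (2.68%, against 0.639% of all genes), and with the culture block 7 (4.7%, against 1.78%). Of 150 tested in *Cacnb3*-/-, 1 was called, lower (0.667%, against 0.66% of all genes), and with the block 10 (6.67%, against 2.88%). From ctrl to 0p5h 1 was called in WT, higher, where 0.176% of all genes were, and none in *Cacnb3*-/-, where 0.29% were. With the block 2 were called in each, where 0.581% of all genes were in WT and 0.643% in *Cacnb3*-/-. Without p974s865 the unblocked *Cacnb3*-/- counts were again 0, 0 and 1. From ctrl to 24h none was called in either genotype, where 0.0152% of all genes were in WT and 0.0% in *Cacnb3*-/-. With the block 3 of 152 were called in WT (1.97%, against 0.926% of all genes). In *Cacnb3*-/- the block gave 3 of 149 (2.01%), where 138 of all 12452 genes were called. These lists were chosen with results of these data known.

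*Klf4*, a transcription factor of the list of DC lineage and mucosal DC genes, was called most often. It was at 8.96, 34.3 and 5.97 CPM in WT ctrl, 0p5h and 24h (means of 5) and at 12.5, 37.7 and 7.26 CPM in *Cacnb3*-/-. It was higher at 0p5h than in ctrl in WT (log2 1.95, edgeR adjusted p = 0.0236) and lower at 24h than at 0p5h in WT (log2 -2.52, edgeR adjusted p = 0.000375) and *Cacnb3*-/- (log2 -2.36, edgeR adjusted p = 0.0377). Its r with *Plet1* was 0.59 over 30 libraries and -0.0031 for deviations from group means, so the likeness lay between groups. In that list, *Irf4* had the next highest r, 0.47, and *Dpp4* and *Epcam*, which encodes an epithelial surface protein, the lowest, -0.50 and -0.48. The median change of its 18 tested members from 0p5h to 24h was log2 -0.04 in WT and -0.13 in *Cacnb3*-/-.

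Of 21 genes of mature migratory DCs none was called without the block. From 0p5h to 24h, 0.639% of all genes were in WT and 0.66% in *Cacnb3*-/-. The median change of the 21 from 0p5h to 24h was log2 0.04 in WT and 0.09 in *Cacnb3*-/-, against 0.01 and 0.00 over all genes. *Apol7c* was the least like *Plet1* among the 21, with r = -0.62, at 387 CPM in WT 0p5h and 862 CPM in WT 24h. With the block it was called higher in both genotypes. *Birc3*, an inhibitor of apoptosis, followed at -0.49. *Cd86* and *Cd274*, costimulatory and inhibitory ligands of T cells, had the highest r, 0.46 each.

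Among the genes of alveolar macrophages, *Olr1*, a receptor for oxidised lipoprotein, was called in WT from 0p5h to 24h (log2 -1.64, edgeR adjusted p = 0.0317) and fell from 124 to 39.8 CPM. Its r with *Plet1* was 0.58, the highest of the list, followed by *Csf2rb*, the shared chain of the GM-CSF receptor, at 0.29 and 2710 CPM in WT 0p5h. *Fabp4* and *Pparg* had the lowest r, -0.46 and -0.32. *Car4* was at most at a mean of 1.60 CPM in any group. The median of the 15 members tested was log2 -0.13 in WT and -0.14 in *Cacnb3*-/- from 0p5h to 24h.

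Macrophage-like cells also arise in GM-CSF cultures. Their 16 markers summed to 3558 to 9910 CPM in WT 0p5h and 2631 to 6696 CPM in WT 24h, and to 3078 to 17091 and 2773 to 10625 CPM in *Cacnb3*-/-. *Cd14*, a coreceptor for lipopolysaccharide, fell in WT from 1061 to 189 CPM (log2 -2.48, edgeR adjusted p = 0.0396) and its r with *Plet1* was 0.76. *Cx3cr1* followed at 0.33, and *Mrc1* and *Trem2* were lowest at -0.29 and -0.24. The median member changed by log2 -0.07 in WT and -0.31 in *Cacnb3*-/- from 0p5h to 24h. The part of these cells in the change of *Plet1* was not tested.

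Granulocyte genes had a median r of -0.29 with *Plet1*. The median of 12 tested members from 0p5h to 24h was log2 0.48 in WT and 0.20 in *Cacnb3*-/-. None was called, where 0.639% of all genes were in WT and 0.66% in *Cacnb3*-/-. *Ly6g* and *Ltf* had the lowest r, -0.42 and -0.39, and *Prtn3* and *Mmp8* the highest, 0.20 and -0.06. Genes of epithelium and trophoblast, the tissues *Plet1* is best known from, were low. Their 16 members together summed to 6.34 to 14.3 CPM a library, and *Cdh1*, which encodes E-cadherin, was the one member in the ranking, at 8.26 CPM in WT ctrl and 7.84 CPM in WT 24h.

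Of the genes that make and attach the GPI anchor all 29 were tested from 0p5h to 24h and none was called with or without the block. Of all genes, 0.639% were called in WT and 0.66% in *Cacnb3*-/-, and with the block 1.78% and 2.88%. The sum of the 29 stayed between 736 and 932 CPM a library. Their median change was log2 0.01 in WT and -0.09 in *Cacnb3*-/-. *Piga*, which acts in the first step of synthesis, had the highest r, 0.47, followed by *Pgap3* at 0.41, and *Pigk* and *Pigp* the lowest, -0.43 and -0.42.

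Of 26 other GPI-anchored surface proteins 18 were tested from 0p5h to 24h, and *Plaur*, the urokinase receptor, was called in WT, lower (log2 -1.46, edgeR adjusted p = 0.0152). *Plaur* was at 78.3, 126 and 45.5 CPM in WT ctrl, 0p5h and 24h. *Nt5e*, the ectoenzyme CD73 that makes adenosine from AMP, had the highest r with *Plet1* in the list, 0.64, and was at 8.91, 9.47 and 3.48 CPM in WT. *Cd52* followed at 0.59, and *Rtn4r* and *Prnp*, the prion protein, were lowest at -0.46 and -0.40. Of 20 genes of adhesion and migration none was called from 0p5h to 24h, where 0.639% of all genes were in WT and 0.66% in *Cacnb3*-/-. Their median change was log2 -0.25 in WT and -0.18 in *Cacnb3*-/-. *Itgax*, which encodes the DC integrin CD11c, had the highest r, 0.51, at 239 CPM in WT 0p5h and 144 CPM in WT 24h, followed by *Itgav* at 0.48, and *Cd44* was among the lowest at -0.27.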

How the data were processed

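Polyadenylated RNA of 30 BMDC libraries was sequenced, and the authors deposited 1 table of raw read counts per gene, with gene length. Per the labels, the submitters' processing notes name STAR 2.4, featureCounts 1.5.1, DESeq2 and the genome build mm10. Coordinates are those of the file (GRCm38), and symbols were matched by Ensembl identifier for 38984 of 43629 rows (89.4%). The values are counts and were tested without change in edgeR 4.0.16 (R 4.3.3; TMM, filterByExpr, quasi-likelihood test), with Benjamini-Hochberg adjustment over all genes tested, and DESeq2 1.42.0 was an alternative. The fits were tested on simulated data. CPM is TMM-normalized over all 30 libraries, and correlations used log2 CPM with a prior count of 2. Tables were handled in Python 3.11.15. Total counts ran from 8237393 to 32164225 a library, and the lowest *Plet1* count was 28 reads.

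Groups follow the library names. Each culture number occurs in 3 libraries of 1 genotype. Deviations from group means of same-numbered libraries correlated by over 0.1 in 29 of 30 pairs (median 0.61), and the exception was p974s843 in ctrl and 24h. Between other numbers 34 of 120 pairs did so (median -0.22). Deviations cancel within a group, so likeness of same-numbered libraries by itself pulls the other pairs down. The main tests used no pairing, and the number entered only as the replicate block of the alternative fits within a genotype. The block was also fitted for ctrl to 24h in *Cacnb3*-/-, the comparison that holds the exception. Most cultures were sequenced in 1 lane, and p974s846 and p974s852 in more than 1.

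Named genes were *Plet1*, *Cacnb3*, *Il1rl2*, genes overlapping *Plet1* or within 200 kb, the 10 highest and 5 lowest by r over 30 libraries, the 5 highest and 5 lowest within groups, and for each list the 2 tested members highest and lowest by r and called members where there were 5 or fewer. Genes with under 10 counts in most libraries were left out of the ranking. The members, lists and motifs were chosen with earlier results of these data known. A few genes that this rule names are not reported here.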

Additional observations from a re-analysis of the deposited data

Results flagged for a closer look

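In *Cacnb3*-/- cultures the change of *Plet1* from ctrl to 24h in p974s865, log2 -2.20, lay far from those of the other 4 cultures, which were between log2 -0.70 and -0.41. Its gap to the nearest culture was 0.836 of the whole range, above Dixon's critical value of 0.71 for 5 values. Of the 24 groups of values examined this was the one above that value, and chance gives about 1 in 20. This culture also had the lowest mitochondrial share among *Cacnb3*-/- cultures, 2.16 to 3.21%, and its part in the difference was not tested.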

How the results depend on the processing

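In the main edgeR fit, which has no replicate block, *Plet1* did not pass in the *Cacnb3*-/- change from 0p5h to 24h. It was called under 5 of 8 alternatives. Without a block these were DESeq2 (log2 -1.56), no filter on low counts (-1.59) and all 30 libraries in 1 fit (-1.59). With the culture as replicate block they were edgeR (-1.63) and DESeq2 (-1.61). Adjusted p over all 8 ran from 8.57e-10 to 0.114. No other tested *Plet1* value changed its call. Leaving out each culture gave log2 0.61 to 0.74 for ctrl to 0p5h, -1.09 to -0.58 for ctrl to 24h, -1.83 to -1.22 for 0p5h to 24h (adjusted p 0.0974 to 0.417) and -0.44 to -0.07 for *Cacnb3*-/- minus WT at 0p5h. With the block, *Cacnb3*-/- ctrl to 24h was log2 -0.90 (edgeR adjusted p = 0.055; DESeq2 -0.88, adjusted p = 0.0115, under 2-fold). All 72 alternatives to the described values kept their direction, but the differences between genotypes moved in size. With sequencing lane as covariate *Cacnb3*-/- minus WT was log2 -0.83 (SE 0.40) in ctrl and 0.67 (SE 0.40) in 24h. With the GC trend removed it was log2 -0.64 (SE 0.40) in ctrl and 0.73 (SE 0.35) in 24h. Members of the gene lists called rose with the block, chosen after seeing the data, to 2 in WT and 2 in *Cacnb3*-/- (ctrl to 0p5h), 3 and 3 (ctrl to 24h), and 7 and 10 (0p5h to 24h). With the GC trend removed and no block, the *Cacnb3*-/- count from 0p5h to 24h was 0, against 1 in the main fit. Over all genes, calls from 0p5h to 24h ran from 81 to 228 in WT and 66 to 367 in *Cacnb3*-/-, those from ctrl to 0p5h from 23 to 76 and 33 to 82, those from ctrl to 24h from 1 to 123 and 0 to 138, and those between genotypes at 0p5h from 0 to 68. Leaving out 1 culture lowered most of these counts, to 39 to 72 and 20 to 66 (0p5h to 24h) and 3 to 13 and 16 to 26 (ctrl to 0p5h), and gave 0 to 2 and 0 to 3 (ctrl to 24h) and 0 between genotypes. Of list members, 1 to 4 in WT and 0 to 2 in *Cacnb3*-/- were then called from 0p5h to 24h, 0 to 1 and 0 from ctrl to 0p5h, and 0 in either from ctrl to 24h. The WT count from 0p5h to 24h fell to 1, 2 and 1 without p974s846, p974s850 and p974s856. The *Klf4* call was lost without any 1 of 4 cultures in WT from ctrl to 0p5h (kept without p974s864) and in *Cacnb3*-/- from 0p5h to 24h (kept without p974s865). Of the 10 genes highest by r, 5 were so by Spearman's rho, 6 with the GC trend removed and 1 with group and culture means removed. The lane covariate, the GC correction of lists and correlations, and leaving out cultures for them were also chosen after seeing the data. The causes were not tested. Leaving out cultures was not run for the interactions or the genotype differences in ctrl and 24h. Counts of 28 to 70 reads limit the WT 24h values.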
